A study of Cucumis melo with 4 samples.

Results

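Loci whose transcript level was higher in one library of a pair in one muskmelon (Cucumis melo) cultivar and lower in the matching library of the other cultivar are described here. There were 197 such loci among the 14810 that could enter the comparison, and they carry 196 distinct MELO3C gene identifiers. They were chosen by the measured values themselves, so their opposite directions are the selection and not a finding. At 130 loci the second BXC library was the higher one of its pair and the second YL library the lower one of its pair. At 67 loci the second BXC library was the lower one and the second YL library the higher one.

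The study sequenced messenger RNA from salt-stressed and control plants of the cultivars BXC and YL, and each of the 4 combinations is represented by 1 library. In the stressed groups the sodium chloride was raised in daily steps of 75 mM, to final levels of 150 and 300 mM, and control plants of both cultivars received none. The greenhouse was kept at 28 °C during the day and at 24 °C in the night, with 14 h of light, for all plants. Neither the tissue nor the final sodium chloride level of each stressed library is given in the sources used here, and tissue markers could not be checked because the identifiers carry no gene names.

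High salt limits water uptake and, as sodium and chloride accumulate, disturbs ion balance. Plant cells answer with abscisic acid signalling, compatible solutes, ion transport and antioxidant enzymes. Cultivars can differ in which transcripts they raise or lower in that answer. A transcript that goes up in one genotype and down in the other is a form of genotype-by-environment interaction. Which of these processes the loci below belong to cannot be read from the files: 0 of the 27427 distinct identifiers occur in the RefSeq gene table used for names, and each locus is therefore described by its identifier, its position and its levels.

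Each cultivar has 1 deposited table with a first and a second library. A table is assigned to BXC or YL only through the letter B or Y in its name, the first letter of the corresponding sample titles. Its columns name neither control nor salt, so every difference is given as the second library over the first, and its direction relative to salt is not given. Opposite means opposite in this library order. If the order of control and salt differed between the tables, loci moving the same way and loci moving opposite ways would exchange places. With 1 library per condition no difference has a replicate check and none was tested. Levels are RPKM, read counts scaled by transcript length and by library size, as the authors deposited them, and the depth behind them is unknown. In these bulk libraries, fewer cells of a type and less RNA per cell cannot be told apart.

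Of 32625 loci in both tables, 27744 carry exactly 1 identifier, 25827 of those lie on a scaffold, and 14810 of those have all 4 values above 0. For each table a log2 fold was computed as log2 of the second value plus 1 over the first value plus 1. A locus was selected where this fold was at least 0.8 in one table and at most -0.8 in the other. Adding 1 RPKM makes the fold of a low locus smaller than its plain ratio. All 197 loci had a highest value of at least 1 RPKM, and the rule's demand for values above 0 removed every locus that was listed at 0 in any library.

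Against all 14810 loci the selected ones were few. The fold was at least 0.8 in the BXC table at 3101 loci (20.9%) and at most -0.8 at 3777 loci (25.5%). In the YL table it was at least 0.8 at 2786 loci (18.8%) and at most -0.8 at 4995 loci (33.7%). Both tables were past the limit in the same direction at many more loci, with 1830 higher in both (12.4%) and 3008 lower in both (20.3%). The 130 loci higher in BXC and lower in YL were 0.878% of all loci, and the 67 in the reverse direction were 0.452%. The first set is 4.19% of the loci higher in the BXC table and 2.6% of those lower in the YL table. The second set is 1.77% of the loci lower in the BXC table and 2.4% of those higher in the YL table.

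The split of 130 against 67 depended on the scaling. The median fold over all 14810 loci was -0.10 in the BXC table and -0.31 in the YL table, so loci were slightly lower in the second library in general, and more so in YL. When each table's folds were centred on that median, 106 loci were higher in BXC and lower in YL and 86 were the reverse. Of the loci selected without centring, 80 of 130 and 56 of 67 were still selected. When all 4 libraries were scaled to the same upper quartile, the counts were 97 and 93.

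**Figure D1:**
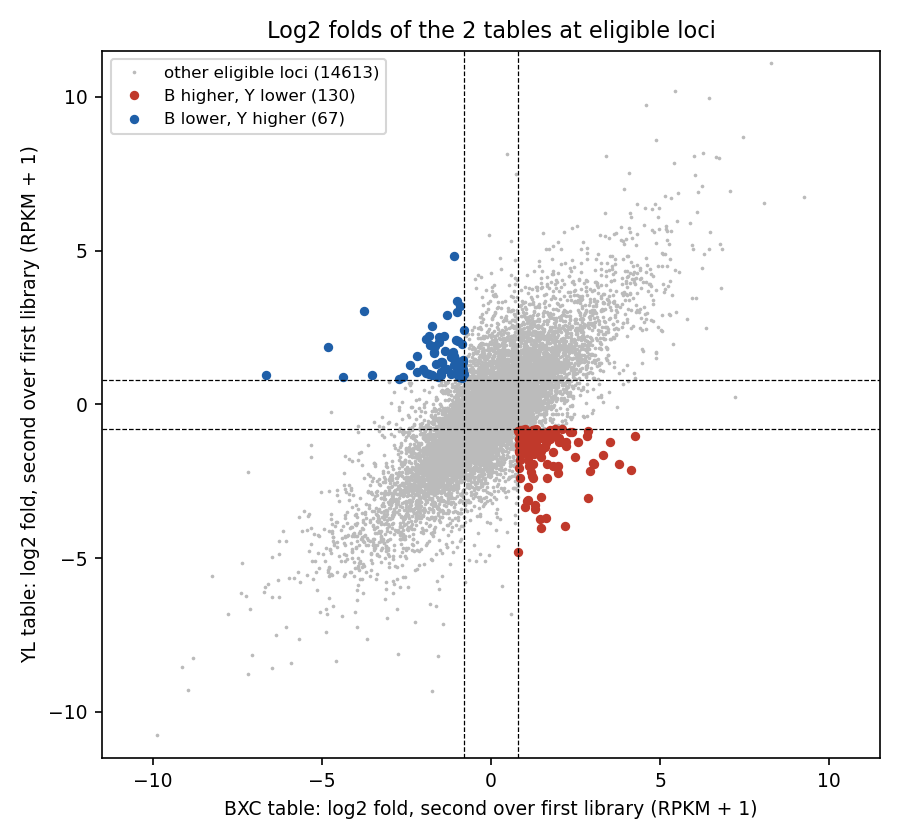
Log2 fold of the second library over the first (RPKM plus 1) in the BXC table on the horizontal axis and in the YL table on the vertical axis, 1 point per locus, for all 14810 loci with the 2 selected directions coloured and dashed lines at the limit. The 130 loci higher in BXC and lower in YL lie in the lower right corner and the 67 of the reverse direction in the upper left, and most other loci follow the diagonal on which both tables move together.

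At the 130 loci higher in BXC and lower in YL, the high library of BXC was as high as that of YL in the median, and the low libraries matched too. The medians were 12.2 RPKM in the second BXC library and 3.89 RPKM in the first, and 3.94 RPKM in the second YL library and 13.9 RPKM in the first. Over all 14810 loci the medians ran from 8.67 to 11.4 RPKM in the 4 libraries. The selected loci thus had 2 libraries a little above the general median and 2 well below it. Their log2 folds ran from 0.80 to 4.27 in BXC, with a median of 1.27, and from -4.81 to -0.81 in YL, with a median of -1.24. Both folds were at least 1 in size at 74 of the 130 loci, and at least 2 in size at 4.

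MELO3C002055 (scaffold00001, positions 916584 to 917339) was the locus whose smaller fold was largest. Its level was 9.96 RPKM in the second BXC library and 0.500 in the first, against 0.460 in the second YL library and 11.2 in the first. The 2 high libraries lay close together and so did the 2 low ones, with log2 folds of 2.87 in BXC and -3.06 in YL. In the authors' deposited table its p-value was 0.0284 in BXC and 0.0228 in YL, with q-values of 0.614 and 0.506. It was the only one of the 197 loci with a p-value under 0.05 in both of the authors' deposited tables, against 544 of all 14810 loci (3.67%).

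MELO3C012454 (scaffold00016, 5295444 to 5296659) was at a higher level throughout. It stood at 80.5 RPKM in the second BXC library and 16.8 in the first, and at 7.60 RPKM in the second YL library and 131 in the first. Its fold was larger in size in YL, at -3.94, than in BXC, at 2.19. MELO3C003548 (scaffold01596, 2167818 to 2168336) had nearly equal highs of 110 RPKM in the second BXC library and 115 RPKM in the first YL library. Its low values were 12.5 RPKM in the first BXC library and 29.2 RPKM in the second YL library, which gave folds of 3.04 and -1.94.

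MELO3C004327 (scaffold00003, 6256094 to 6304140) had 115 RPKM in the second BXC library and 14.2 in the first, against 31.5 in the second YL library and 146 in the first. Its folds were 2.94 in BXC and -2.18 in YL. This locus shares its whole region with other listed loci. One of them carries the same identifier and others beside it, and had 71.0 RPKM in the second BXC library and 52.8 in the first, against 28.6 RPKM in the second YL library and 75.8 in the first. That partner moved the same way as the member in both tables, with a fold of 0.42 in BXC that stayed inside the limit and a fold of -1.37 in YL. Another partner, with no identifier, had 164 RPKM in the second BXC library and 58.3 in the first, against 30.0 RPKM in the second YL library and 104 in the first, and its folds of 1.47 and -1.76 were past the limit in the member's directions.

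MELO3C006801 (scaffold00006, 6107395 to 6110047) was a low locus with the same form. It had 12.6 RPKM in the second BXC library and 2.47 in the first, against 0.951 RPKM in the second YL library and 8.10 in the first. Its folds were 1.97 and -2.22, and the second BXC and first YL libraries were again the high ones.

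At other loci a single library held most of the transcript. MELO3C012825 is listed at 2 selected loci on scaffold00018, 1085 bases apart. The longer, from 1132714 to 1133300, had 157 RPKM in the second BXC library and 7.90 in the first, against 3.36 RPKM in the second YL library and 18.3 in the first. Its BXC fold of 4.15 was thus much larger than its YL fold of -2.15, and the second BXC library stood 8.18 times above the next one, counted with 1 RPKM added. The shorter, from 1131478 to 1131628, is only 151 bases long. It had 14355 RPKM in the second BXC library and 1758 in the first, against 805 RPKM in the second YL library and 3018 in the first, with folds of 3.03 and -1.91. RPKM values in regions this short are large in general: among regions under 200 bases the median value above 0 was 7314 RPKM in the second BXC library, against 7.34 RPKM among regions of at least 1000 bases. The level of the short locus is therefore not comparable with the others.

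MELO3C022390 (scaffold00052, 1360550 to 1367491) had the same form, with 126 RPKM in the second BXC library and 8.23 in the first, against 3.44 RPKM in the second YL library and 16.2 in the first. Its region is shared with MELO3C022389, which had 25.6 RPKM in the second BXC library and 22.9 in the first, against 29.3 RPKM in the second YL library and 20.2 in the first, and was not selected. MELO3C020143 (scaffold00041, 2803389 to 2807494) had 47.7 RPKM in the second BXC library and 11.3 in the first, against 0.545 RPKM in the second YL library and 5.28 in the first. Both BXC values were above both YL values there, so the folds of 1.98 and -2.02 were opposite while the cultivars kept their order.

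The highest mean level of this direction was that of the short MELO3C012825 locus, and the next 3 loci by mean level had smaller folds. MELO3C024367 (scaffold00067, 1079030 to 1084520) had 1927 RPKM in the second BXC library and 856 in the first, against 1437 RPKM in the second YL library and 2893 in the first. MELO3C020896 (scaffold00045, 2196584 to 2210421) had 616 RPKM in the second BXC library and 324 in the first, against 621 RPKM in the second YL library and 1478 in the first. MELO3C006499 (scaffold00006, 3719238 to 3721249) had 354 RPKM in the second BXC library and 159 in the first, against 202 RPKM in the second YL library and 479 in the first. The folds of these 3 loci lay between 0.92 and 1.17 in BXC and between -1.25 and -1.01 in YL, and MELO3C024367 and MELO3C020896 share their regions with other loci. MELO3C024367 was no longer selected when folds were centred on the table's median or libraries were scaled to the same upper quartile.

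**Figure D2:**
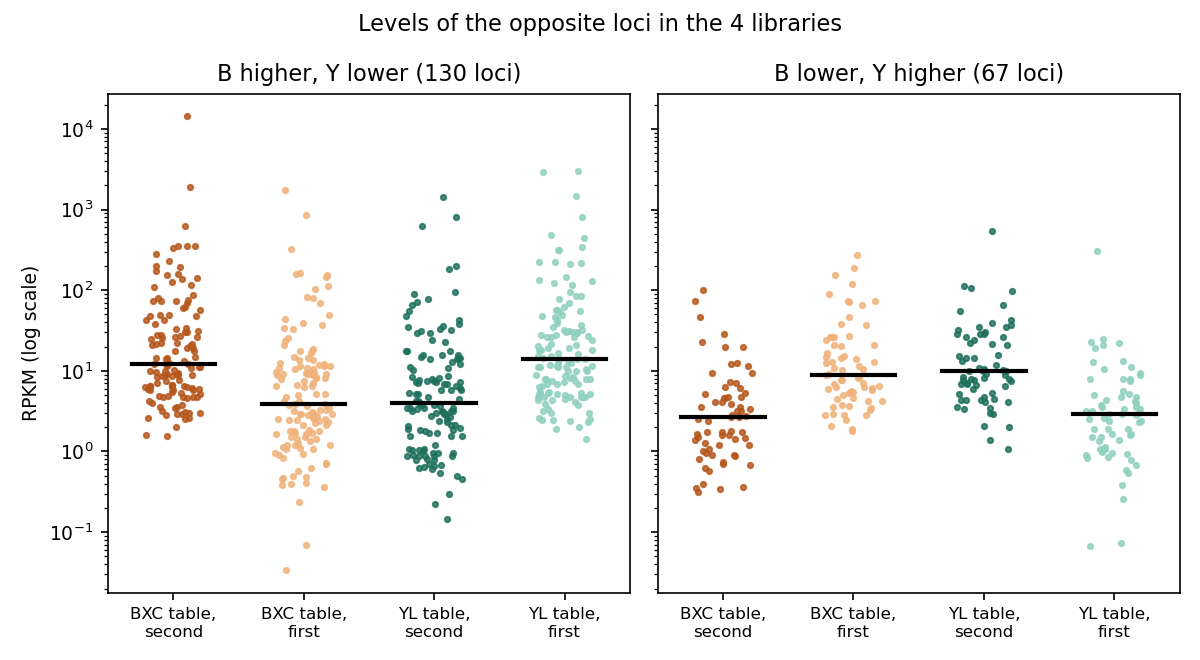
Level in RPKM on a log axis in each of the 4 libraries, for the 130 loci higher in BXC and lower in YL and the 67 loci of the reverse direction in a panel each, 1 point per locus and a line at the median. The medians of the 130 loci are 12.2 and 13.9 RPKM in the second BXC and first YL libraries, against 3.89 and 3.94 RPKM in the first BXC and second YL libraries, and the 67 loci show the mirror image.

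At the 67 loci lower in BXC and higher in YL, the high and low libraries were the mirror image, at slightly lower levels. The medians were 2.65 RPKM in the second BXC library and 8.77 RPKM in the first, and 9.88 RPKM in the second YL library and 2.90 RPKM in the first. Over all 14810 loci the median was 10.4 RPKM in the first BXC library and 8.67 RPKM in the second YL library. Only the second YL library was therefore above its general median. The log2 folds ran from -6.65 to -0.80 in BXC, with a median of -1.29, and from 0.83 to 4.83 in YL, with a median of 1.33. Both were at least 1 in size at 37 loci and at least 2 in size at 1. Low values were more frequent: the lowest of the 4 values was under 1 RPKM at 25 of 67 loci, and at 30 of 130 in the other direction (37.3% and 23.1%), against 20.7% of all 14810 loci.

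MELO3C013523 (scaffold00020, 1779353 to 1780175) was that 1 locus. Its level was 1.01 RPKM in the second BXC library and 26.2 in the first, against 114 RPKM in the second YL library and 12.9 in the first. The second YL library was 4.22 times above the next one, counted with 1 RPKM added, and the folds were -3.76 and 3.04.

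MELO3C002579 (scaffold00001, 4557244 to 4560236) was the only selected locus that passed a q-value limit of 0.05 in an authors' deposited table. It had 0.394 RPKM in the second BXC library and 38.4 in the first, against 20.9 RPKM in the second YL library and 5.05 in the first. The second BXC library was the lowest of the 4 and the first BXC library the highest, with a fold of -4.82 in BXC and 1.85 in YL. The authors' deposited table gave a q-value of 0.0200 in BXC and 0.724 in YL.

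Of the 8 loci of this direction with the largest smaller fold, 6 share their region with another locus, against 2 of 8 in the other direction. MELO3C008334 lies in a region of 223744 bases (scaffold00008, 3703267 to 3927010), the longest of any selected locus. It had 4.55 RPKM in the second BXC library and 20.2 in the first, against 10.1 RPKM in the second YL library and 1.53 in the first. MELO3C020105 (scaffold00041, 1917767 to 1925003) had 5.10 RPKM in the second BXC library and 20.7 in the first, against 26.0 RPKM in the second YL library and 4.76 in the first. At MELO3C020105 the 2 high libraries and the 2 low ones were clearly apart, with folds of -1.83 and 2.23. At MELO3C008334, with folds of -1.93 and 2.13, they were not clearly apart. The lower of its 2 high libraries had 10.1 RPKM and the higher of its 2 low ones 4.55 RPKM. Each of these 2 loci shares its region with a partner of the same identifier that was above 0 only in the first BXC library. That partner had 2.12 RPKM there for MELO3C008334 and 21.4 RPKM for MELO3C020105. The MELO3C008334 region also holds many loci of other identifiers, of which the extremes are named here. A locus of MELO3C008325 had 245220 RPKM in the second YL library and 0 in every other library. MELO3C008333 had 331 RPKM in the first YL library and 0.139 in the second.

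MELO3C022419 (scaffold00052, 1590691 to 1596407) was also among the 4 most abundant, at 20.02 RPKM in the second BXC library and 72.1 in the first, against 98.5 RPKM in the second YL library and 24.9 in the first. MELO3C008635 (scaffold00009, 4720995 to 4732546) had 1.08 RPKM in the second BXC library and 5.98 in the first, against 8.81 RPKM in the second YL library and 0.670 in the first. These are an abundant and a scarce locus with like folds, -1.80 and 1.94 for MELO3C022419 and -1.75 and 2.55 for MELO3C008635. MELO3C022419 shares its region with MELO3C022418, which lay between 18.8 and 28.3 RPKM in the 4 libraries. The MELO3C008635 locus shares its region with partners of the same identifier. The most abundant of them had 38.6 RPKM in the first BXC library and folds of -0.90 in BXC and -1.25 in YL. MELO3C011716 (scaffold00016, 101384 to 116662) had 3.14 RPKM in the second BXC library and 12.4 in the first, against 14.5 RPKM in the second YL library and 3.79 in the first, and its folds of -1.69 and 1.69 were equal in size. A partner of the same identifier in that region had folds of -0.10 in BXC and -0.18 in YL. MELO3C020476 (scaffold00044, 799 to 43092) had 4.10 RPKM in the second BXC library and 15.1 in the first, against 32.1 RPKM in the second YL library and 7.85 in the first. Its folds were -1.66 and 1.90. Its region is shared with several loci of other identifiers. Among them, MELO3C020474 lay between 15.0 and 19.2 RPKM in all 4 libraries. MELO3C020475 had 67.0 RPKM in the second YL library and 0 in every other library.

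Among the most abundant loci of this direction, MELO3C020674 (scaffold00044, 2432390 to 2452283) had 102 RPKM in the second BXC library and 186 in the first, against 547 RPKM in the second YL library and 303 in the first. MELO3C006493 (scaffold00006, 3645115 to 3647952) had 73.0 RPKM in the second BXC library and 153 in the first, against 65.2 RPKM in the second YL library and 22.7 in the first. Both kept the order of the cultivars, with YL the higher at MELO3C020674 and BXC the higher at MELO3C006493. MELO3C020674 was no longer selected under either scaling, and it shares its region with 2 partners of the same identifier whose second library was the higher one in each cultivar. One had 220.3 RPKM in the second BXC library and 103 in the first, against 185 RPKM in the second YL library and 91.8 in the first, and the other had 329 RPKM in the second BXC library and 205 in the first, against 122 RPKM in the second YL library and 29.6 in the first. MELO3C009825 (scaffold00011, 5388868 to 5394053) was high in 1 library only, with 1.72 RPKM in the second BXC library and 273 in the first, against 2.06 RPKM in the second YL library and 0.589 in the first. Its BXC fold of -6.65 was the largest in size of any selected locus, while its YL fold of 0.94 was near the limit. MELO3C009825 shares its region with MELO3C009824, which had 6.96 RPKM in the second BXC library and 11.2 in the first. In YL, MELO3C009824 had 9.80 RPKM in the second library and 11.9 in the first.

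**Figure D3:**
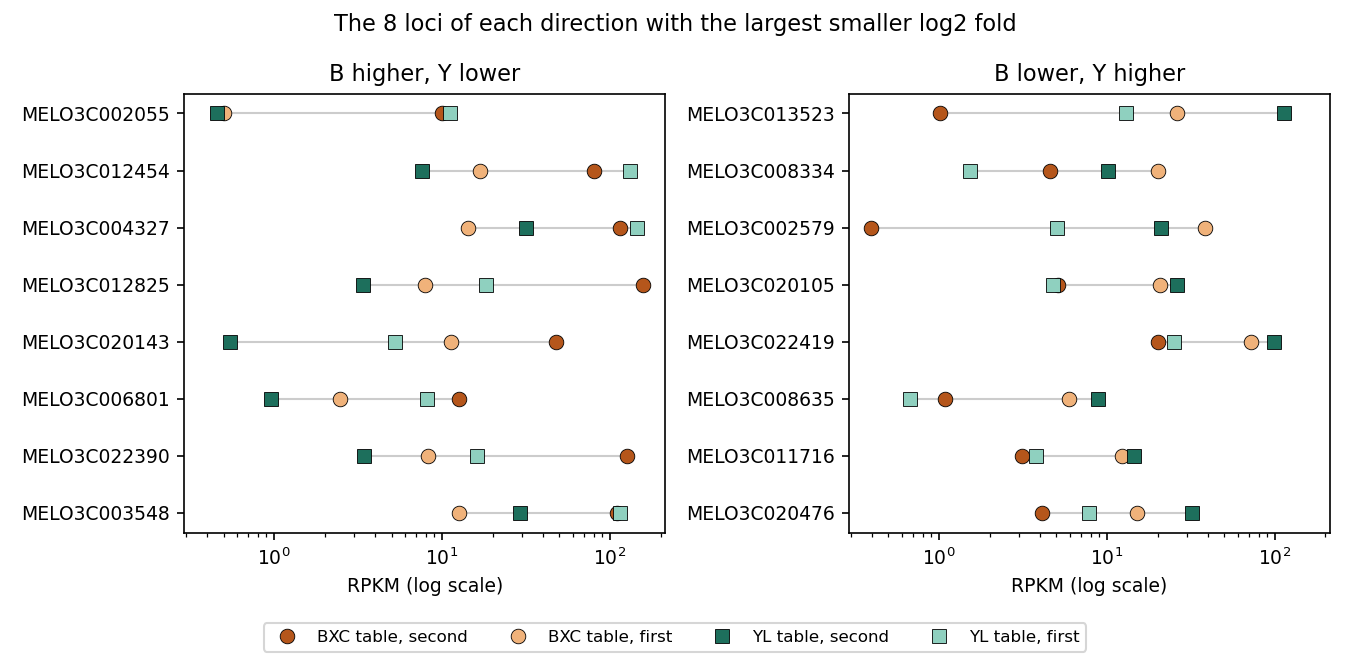
Level in RPKM on a log axis in each library for the 8 loci of each direction whose smaller fold is largest, 1 row per locus and 1 point per library. At MELO3C002055 the second BXC library (9.96 RPKM) and the first YL library (11.2 RPKM) lie together and apart from the other 2, and in the reverse direction the first BXC and second YL libraries are the 2 highest at all 8 loci.

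The loci nearest the limit show how the selection fell. Just inside, MELO3C014580 had folds of 0.80 in BXC and -0.86 in YL, with 21.9 RPKM in the second BXC library and 12.1 in the first, against 7.36 RPKM in the second YL library and 14.2 in the first. MELO3C023109 had folds of 0.81 and -4.81, with 3.60 RPKM in the second BXC library and 1.63 in the first, against 6.88 RPKM in the second YL library and 220 in the first. This region is 435 bases long. The same identifier is also listed from 291246 to 292344 on scaffold00058, at a locus higher in the second library of both cultivars. That locus had 0.881 RPKM in the second BXC library, 9.25 in the second YL library and 0 in both first libraries. Just outside were MELO3C013895, with folds of 1.74 and -0.80, and MELO3C005632, with folds of 0.80 and -1.98, each short of the limit by less than the rounding shown.

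In the reverse direction, MELO3C024402 was just inside with folds of -0.80 and 2.42, as was MELO3C021285 with folds of -0.80 and 0.98. MELO3C024402 had 0.744 RPKM in the second BXC library and 2.04 in the first, against 11.7 RPKM in the second YL library and 1.37 in the first. The authors did not test this locus in BXC. A partner of the same identifier in its region was more abundant and was higher in the second library of both cultivars. That partner had 39.2 RPKM in the second BXC library and 12.5 in the first. In YL it had 27.6 RPKM in the second library and 14.3 in the first. MELO3C021285 had 2.42 RPKM in the second BXC library and 4.97 in the first, against 2.88 RPKM in the second YL library and 0.975 in the first. Just outside were MELO3C011404, with folds of -0.97 and 0.80, and MELO3C014655, with folds of -0.80 and 1.13. MELO3C014655 had 32.9 RPKM in the second BXC library and 57.9 in the first, against 76.9 RPKM in the second YL library and 34.7 in the first, so its cultivars also exchanged order.

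Levels can also be compared between the cultivars, although whether the 2 tables were normalized together is not given, and these gaps use the same 4 values that chose the loci. At 117 of the 130 loci higher in BXC and lower in YL (90.0%, exact 95% interval 83.5 to 94.6, counting error only), BXC was above YL in the second libraries and below it in the first. Over all 14810 loci this order was found at 5285 (35.7%). At 58 of the 67 loci of the other direction (86.6%, interval 76.0 to 93.7), BXC was below YL in the second libraries and above it in the first, against 2453 of all loci (16.6%). Opposite folds make such an exchange of order likely by construction, so these shares describe the loci and support nothing further.

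The gaps themselves were of like size in both libraries. In the second libraries the median log2 gap of BXC over YL was 1.38 at the 130 loci and -1.49 at the 67 loci, against 0.16 over all loci. In the first libraries it was -1.37 at the 130 loci and 1.52 at the 67 loci, against -0.09 over all loci. Both gaps were at least 2-fold, counted with 1 RPKM added and with the order exchanged, at 52 of the 130 loci (40.0%) and at 25 of the 67 (37.3%). Over all 14810 loci the same was found at 174 (1.17%) and at 81 (0.547%). Opposite folds past the limit make such gaps likely by construction.

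**Figure D4:**
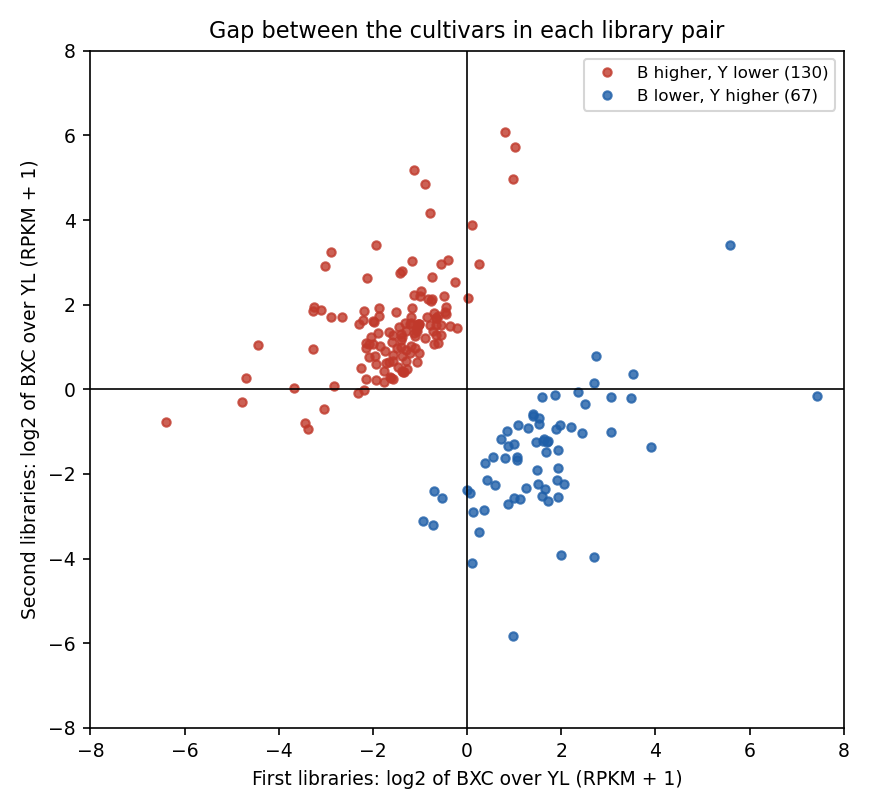
Log2 gap of BXC over YL (RPKM plus 1) in the second libraries on the vertical axis and in the first libraries on the horizontal axis, 1 point per selected locus, coloured by direction. Most points lie in the 2 quadrants where the gap changes sign, 117 of 130 loci in the upper left and 58 of 67 in the lower right.

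The 2 high libraries of a locus were alike more often at the 130 loci than at the 67, and so were the 2 low ones. Within 2-fold is counted here with 1 RPKM added, which brings low values closer together than their plain ratio. At the 130 loci, the second BXC and first YL libraries were within 2-fold of each other at 100 (76.9%), the first BXC and second YL libraries at 100 (76.9%), and both pairs at 85 (65.4%). At the 67 loci, the second BXC and first YL libraries were within 2-fold at 46 (68.7%), the first BXC and second YL libraries at 39 (58.2%), and both pairs at 32 (47.8%). Over all 14810 loci, the second BXC and first YL libraries were within 2-fold at 60.5%, the first BXC and second YL libraries at 57.1%, and both pairs at 6747 (45.6%). The shares of the 67 loci thus lay near those of all loci. These shares use the same values that chose the loci. All loci include those that moved the same way in both tables, where the libraries paired here tend to differ by the fold itself. Opposite folds therefore make a higher share than over all loci likely by construction. The shares describe the loci and support nothing further. The highest value of the 130 loci was in the second BXC library at 61 and in the first YL library at 69. The highest value of the 67 loci was in the first BXC library at 32 and in the second YL library at 35. Neither cultivar therefore held the peak level in nearly all loci of a direction.

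At 13 of the 130 loci and 9 of the 67 the cultivars kept 1 order in both libraries, and the loci named for this, other than those already described, were chosen after their values were seen. MELO3C002608 had 358 RPKM in the second BXC library and 144 in the first, against 5.76 RPKM in the second YL library and 70.1 in the first. MELO3C026066, of the reverse direction, had 46.3 RPKM in the second BXC library and 90.0 in the first, against 3.44 RPKM in the second YL library and 0.911 in the first. BXC was above YL throughout at both. MELO3C023644 had 30.7 RPKM in the second BXC library and 10.5 in the first, against 37.7 RPKM in the second YL library and 315 in the first, so YL was above BXC throughout.

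A single library stood at least 4 times above the next one, counted with 1 RPKM added, at 17 loci. That library was the second BXC library at 4 loci, the first BXC library at 5, the second YL library at 4 and the first YL library at 4. Over all 14810 loci it was the second BXC library at 35 (0.236%), the first BXC library at 34 (0.23%), the second YL library at 120 (0.81%) and the first YL library at 75 (0.506%). The most extreme in each were MELO3C012825 and MELO3C005964 for the second BXC library, MELO3C009825 for the first BXC library, MELO3C022997 for the second YL library and MELO3C023109 for the first YL library. MELO3C005964, chosen after its values were seen, had 193 RPKM in the second BXC library and 9.07 in the first, against 1.87 RPKM in the second YL library and 4.80 in the first. MELO3C022997, also chosen so, had 2.65 RPKM in the second BXC library and 6.81 in the first, against 54.4 RPKM in the second YL library and 0.952 in the first. In the authors' deposited table MELO3C022997 had a p-value of 0.000750 and a q-value of 0.0826 in YL.

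In the authors' deposited tables few of these loci were called, and few of all loci. How their test estimated variability from 1 library per condition is not recorded, and the rule used the same contrasts. The authors' deposited p-value in BXC was under 0.05 at 8 of 127 loci higher in BXC and at 3 of 64 loci lower in BXC, against 932 of 13006 tested loci (7.17%). In YL the authors' deposited p-value was under 0.05 at 6 of 130 loci lower in YL and at 1 of 67 loci higher in YL, against 1072 of 14312 tested loci (7.49%). At a q-value limit of 0.05 the authors' deposited tables called 1 selected locus in BXC and 0 in YL, against 59 tested loci (0.454%) in BXC and 75 (0.524%) in YL.

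The rule did not use the length of the regions or their sharing. Loci higher in BXC and lower in YL lay in regions with a median length of 2694 bases, and loci of the other direction in regions of 4903 bases, against 3972 bases over all 14810 loci. Regions under 1000 bases made up 19.2% of the first direction (25 of 130), 8.96% of the second (6 of 67) and 6.14% of all loci (910). Regions of at least 10000 bases made up 6.15% of the first direction (8 of 130), 26.9% of the second (18 of 67) and 12.2% of all loci (1800). Among loci that share their region with no other, the medians of the directions were close, 2152 bases at 102 loci of the first and 2215 bases at 34 loci of the second, against 3369 bases at all 11581 such loci.

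Sharing a region with another locus had a share in the first direction close to that over all loci and a higher one in the second. It was found at 28 of the 130 loci (21.5%) and at 33 of the 67 (49.3%), against 3229 of all loci (21.8%). Loci that share a region share it exactly, and the tables do not say how reads in it were divided, so these levels are uncertain. At 24 of the 67 loci (35.8%) a partner in the region carried the same identifier, against 11 of the 130 (8.46%) and 1757 of all loci (11.9%). The part that read division has in these directions was not tested. Without the shared regions, 102 loci of the first direction and 34 of the second were left.

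The partners with the same identifier mostly had higher levels than the selected locus and did not share its pattern, which few of all loci have. The 24 loci of the second direction had 34 such partners, of which 22 had a higher mean level than the selected locus. How often a partner is the higher one was not counted over all loci. Only 1, at MELO3C026153, passed the limit in the same directions, against 67 of all 14810 loci (0.452%). Of the 34 partners, 8 were past the limit as lower in both tables and 4 as higher in both. Over all loci these shares were 20.3% and 12.4%. Of the 34 partners, 26 had all 4 values above 0, as all of the 14810 loci do. In the first direction, 11 loci had 11 such partners, of which 7 had a higher mean level. Of these, 0 passed the limit in the same directions, against 0.878% of all loci. MELO3C019619 and MELO3C009602 were chosen as examples after their values were seen. The selected MELO3C019619 locus had 1.53 RPKM in the second BXC library and 6.29 in the first, against 14.2 RPKM in the second YL library and 2.35 in the first. Its partner had 23.6 RPKM in the second BXC library and 88.3 in the first, against 21.9 RPKM in the second YL library and 75.6 in the first, and so was lower in the second library of both cultivars. The selected MELO3C009602 locus had 0.577 RPKM in the second BXC library and 3.63 in the first, against 6.96 RPKM in the second YL library and 0.933 in the first, while the more abundant of its 2 partners had 24.2 RPKM in the second BXC library and 50.4 in the first, against 27.6 RPKM in the second YL library and 52.6 in the first. The other MELO3C009602 partner was listed at 0 in both BXC libraries and had 3.86 RPKM in the second YL library and 1.82 in the first. At both identifiers the more abundant locus was lower in the second library of both cultivars.

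**Figure D5:**
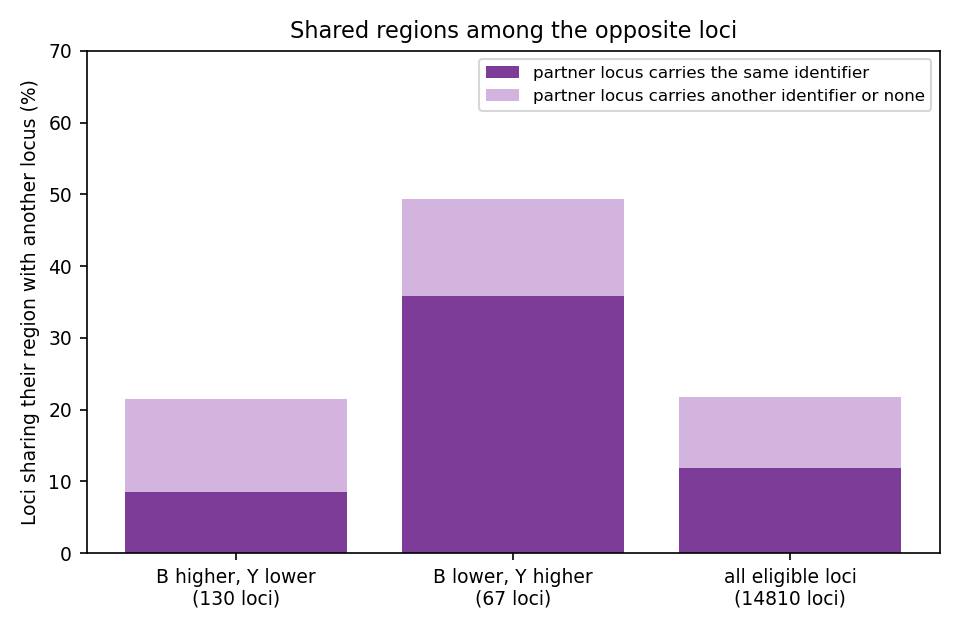
Share of loci, in percent, that lie in exactly the same region as another locus, split by whether a partner carries the same identifier, for the 130 loci higher in BXC and lower in YL, the 67 loci of the reverse direction and all 14810 loci. The share is 49.3% at the 67 loci, against 21.8% of all loci, and most of the difference lies in partners with the same identifier (35.8% against 11.9%).

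The selected loci were spread over the genome. Those higher in BXC and lower in YL lay on 53 scaffolds and those of the reverse direction on 39, together 61 of the 219 scaffolds with an eligible locus. Scaffold00006 held the most of the first direction, 11 of its 743 eligible loci (1.48%). Members followed each other directly along a scaffold in 6 pairs, of which 4 were both of the first direction. MELO3C002055 was followed by MELO3C002056 at a distance of 5159 bases, and the 2 MELO3C012825 loci by MELO3C012828. Neighbours of the same direction were left out of the next counts, while selected loci of the opposite direction stayed in. The 231 neighbours of the first direction had median folds of 0.12 in BXC and -0.21 in YL, and the 102 of the second had -0.20 and -0.31. In the second direction, 7.84% of the neighbours had a fold below 0 in BXC and above 0 in YL, against 7.62% of all loci, and in the first direction 16.9% had the reverse signs, against 15.1%.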

How the data were processed

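The authors deposited 1 table per cultivar with RPKM values of 2 libraries, a log2 fold and its p-value and q-value, per the file headers. The submitters' processing notes name CASAVA and TopHat2 with no version. No source used here gives the quantifier, its strand setting or the genome build (locus names begin with CM3.5). The deposited log2 fold equalled the second value over the first within 0.01 at 18643 of 18644 loci in the BXC table and 20068 of 20070 in the YL table, which fixed the library order. Tables were joined by locus, and log2 folds were computed from RPKM plus 1. No test was made, since each condition has 1 library. Members, lists and rules were chosen with earlier results of these data known. Loci were named by rule: per direction the 8 with the largest smaller fold, the 4 with the highest mean, any with a deposited q-value under 0.05, and the 2 nearest the limit on either side. Coordinates count from 1. Alternatives varied limit, pseudocount, level filter, scaling and locus filters. Calculations used Python 3.11.15, numpy 2.4.6, pandas 2.3.3, scipy 1.17.1 and matplotlib 3.10.9. Only the step that assigns directions was checked on simulated data. There the first values were raised and the planted changes lay well past the limit, so low loci and folds near the limit were not covered.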

Additional observations from a re-analysis of the deposited data

Results flagged for a closer look

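The loci were singled out because 1 library pair moves one way in BXC and the other way in YL. These differences were not tested, and the selection fixed them. The 130 loci higher in BXC and lower in YL had a median difference of 2.70 between the BXC fold and the YL fold (log2). The 67 loci lower in BXC and higher in YL had a median difference of -2.85. MELO3C002579, the only selected locus with a q-value under 0.05 in an authors' deposited table, had a difference of -6.67.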

How the results depend on the processing

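The counts of loci higher in BXC and lower in YL, and of the reverse direction, moved with the limit and the pseudocount. A limit of 0.6 gave 269 and 137 loci and a limit of 1 gave 74 and 37, which follows from the limit itself. A pseudocount of 0.1 RPKM gave 257 and 164, 5 RPKM gave 52 and 19, and none gave 292 and 184, since it sets how much a low locus counts. In the reverse direction alone, a highest value of at least 10 RPKM left 42 loci, leaving out shared regions left 34, and allowing values of 0 gave 162. The other settings stayed within 1.5 times the counts reported. The share of loci whose cultivars exchanged order ran from 86.5 to 90.6% in one direction and from 79.4 to 92.5% in the other over all 14 alternatives. For named members, in alternatives added after the data were seen, 120 of 135 values stayed past the limit, 15 came inside it and 0 changed direction; centring and upper-quartile scaling each moved the same 5 inside it, MELO3C024367, MELO3C020674, MELO3C014580, MELO3C021285 and MELO3C024402. No paired analysis was possible because each condition has 1 library and the columns carry no sample; for the same reason no library could be left out. RPKM gives no depth, so counting error at low loci is unknown.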
